A study of Mus musculus with 6 samples.

Results

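Netrins and the receptors that read them were followed here through 8 genes, taken by symbol from the gene count table: the receptors *Unc5a*, *Unc5b*, *Unc5c*, *Unc5d*, *Dcc* and *Neo1*, and the ligands *Ntn1* and *Ntn4*. All 8 were among the 55421 genes listed and all 8 passed the filter on low counts, which left 16575 genes to test. The values came from whole retinas of 2-month-old mice. The control group held the retinas of 3 Yapfl/fl animals (YR612, YR613 and YR615), and the *Yap* cKO group those of 3 Yapfl/fl;RaxCreERT2 animals (YR711, YR713 and YR714). Both groups therefore carried the floxed *Yap* alleles, and both received 4OH-T (4-hydroxytamoxifen) at P10 and P14. Only the *Yap* cKO animals carried the inducible Cre recombinase, which the study describes as restricted to Müller glia and to the non-pigmented epithelium of the ciliary body. A whole retina contains many other cell types, so fewer cells of a type and less RNA per cell cannot be told apart in these values. The study's question was which transcripts differ in the retina when *Yap*, a transcriptional co-activator of the Hippo pathway that acts through TEAD factors, is deleted in those cells.

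Netrins are secreted proteins related to laminins. Through DCC and neogenin they can attract a growing axon, while UNC5 receptors, alone or together with DCC, turn the same cue into repulsion. UNC5 proteins and DCC are also known as dependence receptors, which can signal for cell death when no ligand is bound. In the retina, netrin-1 at the optic disc guides ganglion cell axons into the optic nerve, UNC5B is a receptor of endothelial cells in growing vessels, UNC5D is found on subsets of retinal neurons, and netrin-4 is a component of basement membranes, the inner limiting membrane and vessel walls among them.

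The stretches of genome just upstream of *Ntn4* and *Unc5b* are printed because they are the only members whose retinas did not overlap between the groups. Each is the 250 bases before the RefSeq start site, in GRCm38.p6 and read 5′ to 3′ on the strand of the gene. That of *Ntn4* is chr10:93640799-93641048 on the plus strand, and that of *Unc5b* is chr10:60831582-60831831 on the minus strand. The *Ntn4* window lies within the span that the count table gives for the gene, outside its annotated exons. Capitals mark each GGGCGG, the GC box known to bind Sp factors, or its complement CCGCCC, including a pair that overlap in *Ntn4*.
Ntn4: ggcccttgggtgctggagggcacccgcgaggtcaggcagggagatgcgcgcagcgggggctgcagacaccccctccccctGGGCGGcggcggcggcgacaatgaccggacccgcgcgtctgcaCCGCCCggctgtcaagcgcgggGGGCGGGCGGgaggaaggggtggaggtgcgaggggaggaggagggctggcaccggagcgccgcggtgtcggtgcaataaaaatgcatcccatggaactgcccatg
Unc5b: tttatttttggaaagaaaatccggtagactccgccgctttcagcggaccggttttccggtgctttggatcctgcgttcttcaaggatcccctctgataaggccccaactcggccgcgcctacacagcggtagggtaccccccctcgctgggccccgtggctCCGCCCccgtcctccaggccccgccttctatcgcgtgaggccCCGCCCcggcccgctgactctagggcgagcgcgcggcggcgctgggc

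The *Ntn4* window held 4 GC boxes and a GC content of 73.2%. The *Unc5b* window held 2 GC boxes and a GC content of 66.8%. Over the 32851 windows of the RefSeq table, 32.7% held a GC box, and the median GC content was 52.4%. The table had windows for 5 of the 8 genes, and GC boxes stood in 4 of them, the exception being *Unc5c*. All 250 bases of the *Unc5c* window lie in annotated exons of that gene. The core letters that TEAD factors are known to bind, GGAATG or its complement CATTCC, were in 0 of the 5 windows and in 12.6% of all windows. A match or its absence describes these letters in these 250 bases and nothing more.

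The 8 genes covered a wide range of levels, given here in TPM (transcript counts divided by exonic length and scaled to a common total, so that genes can be compared). In the 3 control retinas the order was the same at the top. *Neo1* was the most abundant member at 48.6 ± 6.40 TPM (SD, n = 3), followed by *Unc5a* at 30.8 ± 3.10, *Ntn4* at 20.6 ± 1.498, *Unc5d* at 12.6 ± 2.21 and *Unc5b* at 8.35 ± 0.540. *Unc5c* at 6.47 ± 0.949 TPM and *Dcc* at 6.12 ± 1.59 TPM overlapped and changed places between retinas, and *Ntn1* was last at 0.575 ± 0.118 TPM. In the 3 *Yap* cKO retinas *Neo1*, *Unc5a* and *Ntn1* kept the first, second and last places, but *Ntn4* stood below *Unc5d* in each of them, and below *Unc5b* in YR713 and YR714. Counts per retina ran from 20 to 52 for *Ntn1* and from 329 to 4265 for the others, so *Ntn1* is the least precisely measured.

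**Figure D1:**
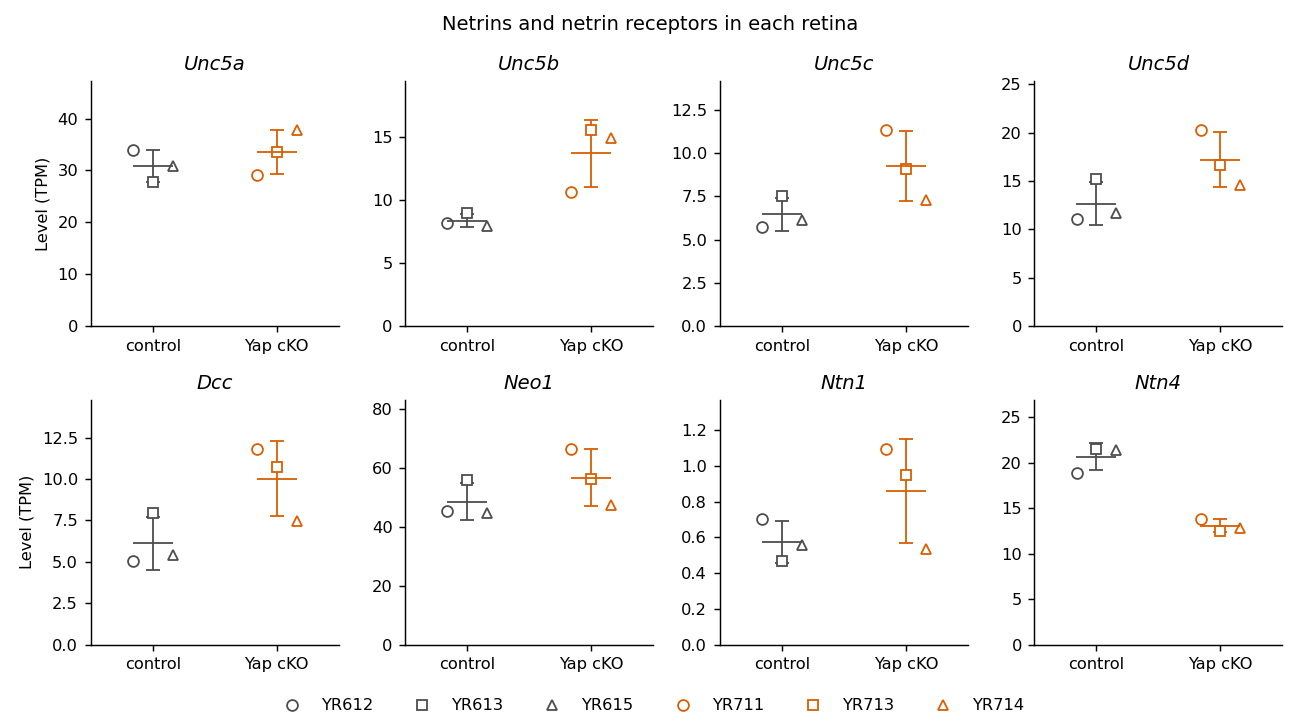
Level of each gene in TPM (y axes, each starting at 0) in the 3 control and 3 *Yap* cKO retinas, with 1 symbol per animal, the mean as a bar and the SD as the error bar. The groups are apart for *Ntn4*, lower in *Yap* cKO, and for *Unc5b*, higher in *Yap* cKO, while the points of the other 6 genes overlap.

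The *Yap* cKO and control retinas were compared with edgeR's quasi-likelihood test. A gene was called when its Benjamini-Hochberg adjusted p over all tested genes was at most 0.05, its fold change at least 1.5 and its mean at least 5 TPM in 1 group. Among the 8 genes 1 was called, *Ntn4*, against 0.796% of all tested genes. The direction lower in *Yap* cKO accounted for 0.585% of tested genes. By the adjusted p alone the same member passed, against 1.49% of tested genes. Among the 8, the log2 fold change was above 0 for 7, against 50.3% of tested genes, and the median was 0.42, against 0.0017 over all tested genes. For 2 of the 8 the groups of retinas were fully apart in TPM, against 24.3% of tested genes, so that this count lies near the background.

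*Ntn4* (ENSMUSG00000020019, chr10:93640681-93747207, plus strand), which encodes netrin-4, fell in the *Yap* cKO retinas. Its level was 18.9 TPM (YR612), 21.6 TPM (YR613) and 21.5 TPM (YR615) in control retinas, and 13.9 TPM (YR711), 12.5 TPM (YR713) and 12.9 TPM (YR714) in *Yap* cKO retinas. Every *Yap* cKO retina lay below every control retina, and the SD within each group (1.498 and 0.710 TPM) was small beside the gap. The log2 fold change was -0.72 (SE 0.094, 95% interval -0.93 to -0.51), a level 1.65-fold lower, with an adjusted p of 0.00824 by edgeR's quasi-likelihood test. It stood at rank 52 of the 16575 tested genes by p. The call was lost without control YR615 (adjusted p = 0.0636, log2 fold change -0.69) and without *Yap* cKO YR713 (adjusted p = 0.0517, log2 fold change -0.68), fits in which 0.226% and 0.403% of all genes were called. It was kept by edgeR's likelihood ratio test, DESeq2's Wald test and limma-voom.

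Markers of other cells moved in the same retinas as *Ntn4*, and their part in its value was not tested. *Yap1* itself, the deleted gene, fell from between 9.48 and 9.83 TPM in control to between 3.76 and 3.99 TPM in *Yap* cKO retinas (log2 fold change -1.36, adjusted p = 0.000282 by edgeR's quasi-likelihood test). Summed levels of 17 cell type marker lists were compared by group, and 5 were lower in *Yap* cKO with no overlap between the groups, 1 was higher and 11 overlapped. Of all single genes tested, 24.3% had no overlap between the groups, in either direction. Müller glia markers summed to between 7789 and 8087 TPM in control retinas and between 6858 and 7174 TPM in the others. Of these 10 genes 3 were higher and 7 lower, and 0 were called. An unadjusted quasi-likelihood p under 0.05 was found for 6 of the 10, and for 3549 of all 16575 tested genes. Markers of ciliary body and iris epithelium summed to between 882 and 943 TPM against 424 to 729 TPM (2 of 9 tested genes called, both lower). Melanin genes summed to between 86.4 and 93.6 against 21.7 to 62.2 TPM (1 of 8 called, lower). Fibroblast genes summed to between 51.2 and 76.1 against 4.13 to 19.6 TPM (1 of 5 tested genes called, lower). The astrocyte sum overlapped (57.8 to 76.7 against 46.2 to 59.1 TPM), with 1 of 4 tested genes called, lower. Over all tested genes 0.796% were called. Within the *Yap* cKO group *Ntn4* was highest in YR711 and lowest in YR713. YR713 and YR714 were close, at 12.5 and 12.9 TPM. The Müller glia, horizontal cell, cone and bipolar cell sums had this same order, and the other sums had other orders. Single Müller glia genes differed in order. *Glul*, the largest of them, was at 3010, 2572 and 2551 TPM in YR711, YR713 and YR714, and *Apoe* at 784, 1002.5 and 1158 TPM. An order of 3 retinas says little, and none of these orders was tested. The horizontal cell sum was also lower (204 to 238 against 244 to 262 TPM) and the oligodendrocyte sum higher (17.9 to 22.1 against 16.0 to 17.3 TPM). The horizontal cell genes were mixed, however, with 3 of 5 higher, 2 lower and a median log2 fold change of 0.42.

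*Ntn1* (ENSMUSG00000020902, chr11:68209364-68400823, minus strand), which encodes netrin-1, was low in every retina. It measured 0.700 TPM (YR612), 0.465 TPM (YR613) and 0.560 TPM (YR615) in control retinas, and 1.10 TPM (YR711), 0.952 TPM (YR713) and 0.536 TPM (YR714) in *Yap* cKO retinas. YR714 lay within the control range, and the log2 fold change of 0.52 (SE 0.29) did not pass the test (adjusted p = 0.324 by edgeR's quasi-likelihood test). *Ntn4* made up 97.3 ± 0.749% of the *Ntn1* and *Ntn4* transcripts in control retinas and 93.9 ± 1.86% in *Yap* cKO retinas (SD, n = 3, exact permutation p = 0.1, the smallest that 3 retinas against 3 can give).

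*Unc5b* (ENSMUSG00000020099, chr10:60762593-60831581, minus strand) was the receptor whose groups were apart. It measured 8.16 TPM (YR612), 8.95 TPM (YR613) and 7.92 TPM (YR615) in control retinas, and 10.6 TPM (YR711), 15.5 TPM (YR713) and 14.9 TPM (YR714) in *Yap* cKO retinas. All 3 *Yap* cKO retinas exceeded all controls, and YR711 was well below the other two, which gave the *Yap* cKO group an SD of 2.66 TPM against 0.540 TPM in control. The log2 fold change was 0.66 (SE 0.15, 95% interval 0.33 to 0.99), or 1.58-fold, and the adjusted p of 0.0645 by edgeR's quasi-likelihood test did not reach the threshold.

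Whether *Unc5b* was called depended on the test and on single retinas. It was called by the likelihood ratio test (adjusted p = 0.00385, with 1.76% of all tested genes called) and by DESeq2's Wald test (adjusted p = 0.00235, with 1.59% called), and without a filter on low counts (1.22% called). It was called without *Yap* cKO YR711 (adjusted p = 0.00819, log2 fold change 0.81) and without control YR613 (adjusted p = 0.0361, log2 fold change 0.69), where 0.615% and 3.06% of all genes were called. The fits without 1 retina gave adjusted p-values from 0.00819 to 0.286. Endothelial markers summed to between 237 and 246 TPM in control retinas and between 207 and 268 TPM in *Yap* cKO retinas, with 4 of 10 genes higher, 6 lower and 0 called. The *Yap* cKO retina with the least *Unc5b*, YR711, had the highest endothelial sum (268 TPM), and YR714 the lowest (207 TPM). That order was the order of *Kdr*, the largest of these genes (141, 94.8 and 78.2 TPM in YR711, YR713 and YR714), and of *Flt1*. Other endothelial genes had other orders. *Cdh5* was lowest in YR711, at 5.997, 7.109 and 7.103 TPM, against 4.44 to 5.42 TPM in control retinas. *Cldn5* was also lowest in YR711. The part of endothelial cells in the *Unc5b* value was not tested.

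*Unc5a* (ENSMUSG00000025876, chr13:54949411-55006018, plus strand), the most abundant of the Unc5 genes, was measured at similar levels in both groups. Its values were 34.0 TPM (YR612), 27.8 TPM (YR613) and 30.8 TPM (YR615) in control retinas, and 29.2 TPM (YR711), 33.6 TPM (YR713) and 37.8 TPM (YR714) in *Yap* cKO retinas. The groups overlapped over most of their range, and the log2 fold change was 0.06 (95% interval -0.23 to 0.35, adjusted p = 0.798 by edgeR's quasi-likelihood test).

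*Unc5c* (ENSMUSG00000059921, chr3:141465216-141834924, plus strand) and *Unc5d* (ENSMUSG00000063626, chr8:28646717-29219636, minus strand), receptors for repulsion by netrins, had higher means in *Yap* cKO and overlapping groups. *Unc5c* was at 5.73 TPM (YR612), 7.54 TPM (YR613) and 6.13 TPM (YR615) in control retinas, and at 11.3 TPM (YR711), 9.08 TPM (YR713) and 7.30 TPM (YR714) in *Yap* cKO retinas. *Unc5d* was at 11.1, 15.2 and 11.6 TPM in the controls and at 20.3, 16.7 and 14.6 TPM in the *Yap* cKO retinas, in the same order. For both genes control YR613 lay above *Yap* cKO YR714, and the log2 fold changes of 0.46 (SE 0.15, adjusted p = 0.134) and 0.39 (SE 0.13, adjusted p = 0.152) did not pass edgeR's quasi-likelihood test. Over the fits without 1 retina the smallest adjusted p was 0.0302 for *Unc5c* and 0.0358 for *Unc5d*, both under the minimum fold and thus not called.

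*Dcc* (ENSMUSG00000060534, chr18:71253634-72351069, minus strand), the receptor for attraction by netrin-1, had the same shape over the retinas. It measured 5.03 TPM (YR612), 7.94 TPM (YR613) and 5.39 TPM (YR615) in control retinas, and 11.9 TPM (YR711), 10.8 TPM (YR713) and 7.47 TPM (YR714) in *Yap* cKO retinas. Here too YR613 exceeded YR714, which were the only pair out of place. The log2 fold change was 0.66 (SE 0.19, 95% interval 0.24 to 1.08), or 1.58-fold, with an adjusted p of 0.109 by edgeR's quasi-likelihood test. It was called by the likelihood ratio test (adjusted p = 0.0239), by DESeq2's Wald test (adjusted p = 0.0150) and in the fits that left out control YR613 (adjusted p = 0.0173) or, with 2.66% of all genes called, *Yap* cKO YR714 (adjusted p = 0.0222).

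*Neo1* (ENSMUSG00000032340, chr9:58874687-59036441, minus strand) encodes neogenin, a relative of DCC that also binds repulsive guidance molecules. It was at 45.2 TPM (YR612), 56.0 TPM (YR613) and 44.6 TPM (YR615) in control retinas, and at 66.7 TPM (YR711), 56.2 TPM (YR713) and 47.5 TPM (YR714) in *Yap* cKO retinas. The groups overlapped, and the log2 fold change was 0.17 (95% interval -0.11 to 0.44, adjusted p = 0.439 by edgeR's quasi-likelihood test). Retinal ganglion cell markers, which mark a cell type that uses these receptors, summed to between 2139 and 2435 TPM in control retinas and between 2201 and 2460 TPM in those of *Yap* cKO (6 of 10 genes higher, 4 lower, 0 called). Amacrine markers summed to between 1892 and 2087 and between 1944 and 2083 TPM (8 of 9 genes higher, 1 lower, 0 called, median log2 fold change 0.11).

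Taken by family, the summed Unc5 level was 59.0 TPM (YR612), 59.4 TPM (YR613) and 56.5 TPM (YR615) in control retinas and 71.4 TPM (YR711), 74.9 TPM (YR713) and 74.6 TPM (YR714) in *Yap* cKO retinas. The 2 sets of retinas were apart, with means of 58.3 ± 1.58 and 73.6 ± 1.93 TPM (SD, n = 3, exact permutation p = 0.1, two-sided). *Dcc* made up 10.002, 12.4 and 10.8% of the *Dcc* and *Neo1* transcripts in the controls and 15.1, 16.1 and 13.6% in the *Yap* cKO retinas (exact permutation p = 0.1). The share of *Unc5b* among Unc5 transcripts was 13.8, 15.1 and 14.03% in control and 14.9, 20.7 and 19.97% in *Yap* cKO (exact permutation p = 0.2), and YR711 stood within the control range. The ratio of *Unc5b* to *Ntn4*, formed after both were seen to differ in opposite directions, was between 0.369 and 0.431 in control and 0.768, 1.24 and 1.16 in *Yap* cKO retinas, on the TPM scale. Over the 10 sums, shares and ratios computed, 5 had an exact permutation p = 0.1, and the Benjamini-Hochberg adjusted p of those was 0.2, so that none can pass in this design.

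**Figure D2:**
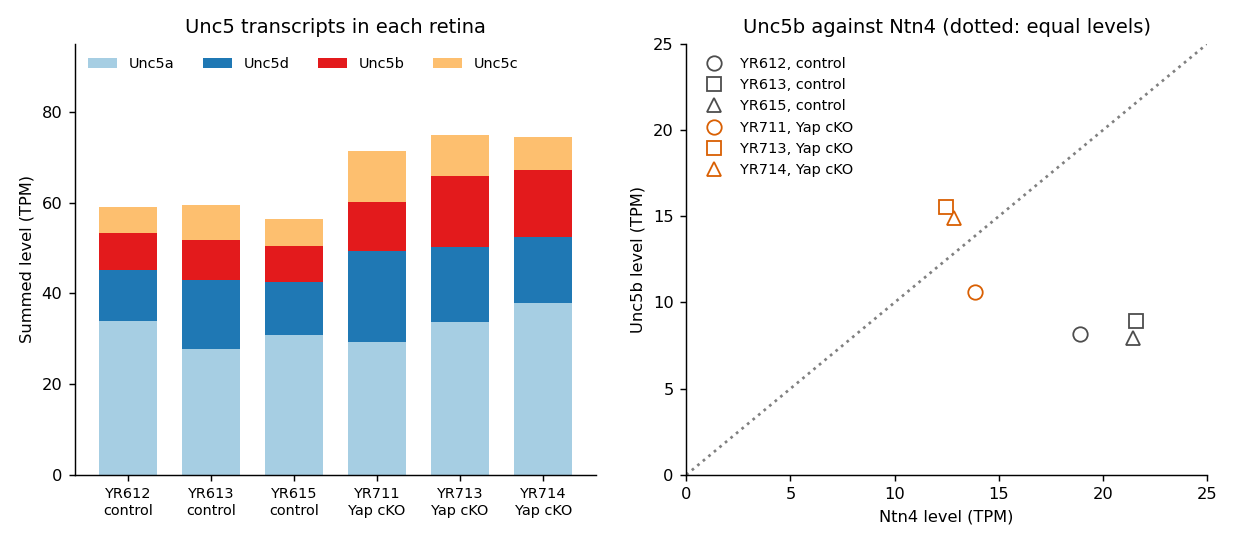
Left, stacked levels of the 4 Unc5 genes in TPM (y axis from 0) in each retina, with totals between 56.5 and 59.4 TPM in control retinas and between 71.4 and 74.9 TPM in those of *Yap* cKO. Right, *Unc5b* against *Ntn4* in TPM with 1 symbol per animal, where YR713 and YR714 lie above the dotted line of equal levels and the controls far below it.

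The long receptors were also set beside gene length and the order of the retinas. The 8 genes have exonic lengths from 3741 bases (*Ntn4*) to 19135 bases (*Unc5c*), and 7 of the 8 are longer than the median tested gene of 4132 bases. Across all tested genes, which are not independent replicates, the expression of a retina relative to the mean of the 6 followed exonic length with a Spearman's rho of 0.40 in YR711, 0.39 in YR713, 0.17 in YR613, -0.15 in YR714, -0.41 in YR615 and -0.41 in YR612. *Unc5c* (19135 bases), *Dcc* (13171 bases) and *Unc5d* (9220 bases) put the 6 retinas in exactly this order, as did 5.46% of all tested genes, and *Neo1* (8716 bases) departed from it only in the last 2 places. *Unc5b* (6258 bases), *Unc5a* (4168 bases), *Ntn1* (6277 bases) and *Ntn4* did not follow it. Over all tested genes the log2 fold change itself followed exonic length (Spearman's rho 0.39), and the highest values were in *Yap* cKO YR711 and YR713. A trend with length and a difference between the groups therefore cannot be told apart, and a correction for length may remove part of either.

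**Figure D3:**
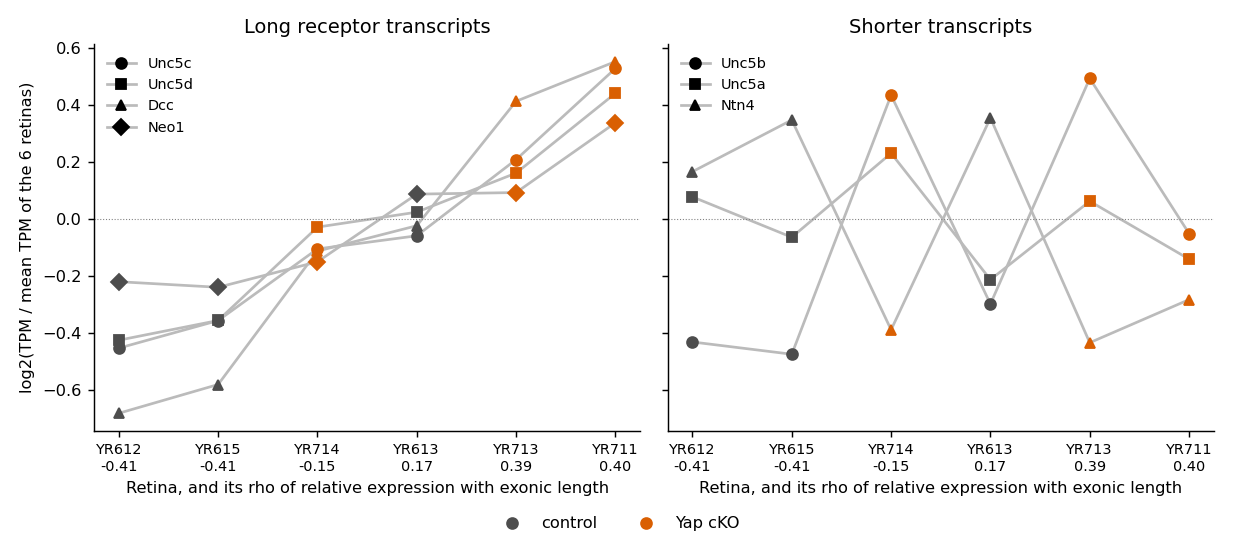
Level of 7 of the genes in each retina relative to the mean of the 6 (y axis, log2 scale), with retinas ordered by their rho between relative expression and exonic length (x axis) and coloured by group. *Unc5c*, *Unc5d* and *Dcc* climb at every step, control YR613 standing above *Yap* cKO YR714, while *Unc5b* and *Ntn4* separate by group.

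With offsets corrected in each retina for exonic length, the log2 fold change of *Unc5c* went from 0.46 to 0.13, that of *Dcc* from 0.66 to 0.44, that of *Unc5d* from 0.39 to 0.27 and that of *Neo1* from 0.17 to 0.05. The shorter genes moved less. *Ntn4* was at -0.68 (adjusted p = 0.00464 by edgeR's quasi-likelihood test) and stayed called, where 0.935% of all tested genes were called. *Unc5b* was at 0.61 (adjusted p = 0.0510), and *Unc5a*, at 0.07, and *Ntn1*, at 0.46, did not pass. The median over the 8 went from 0.42 to 0.20. By the likelihood ratio test with the same correction, *Ntn4* and *Unc5b* were called and *Dcc* (log2 fold change 0.44, adjusted p = 0.0234) missed only the minimum fold, with 1.48% of all tested genes called.

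**Figure D4:**
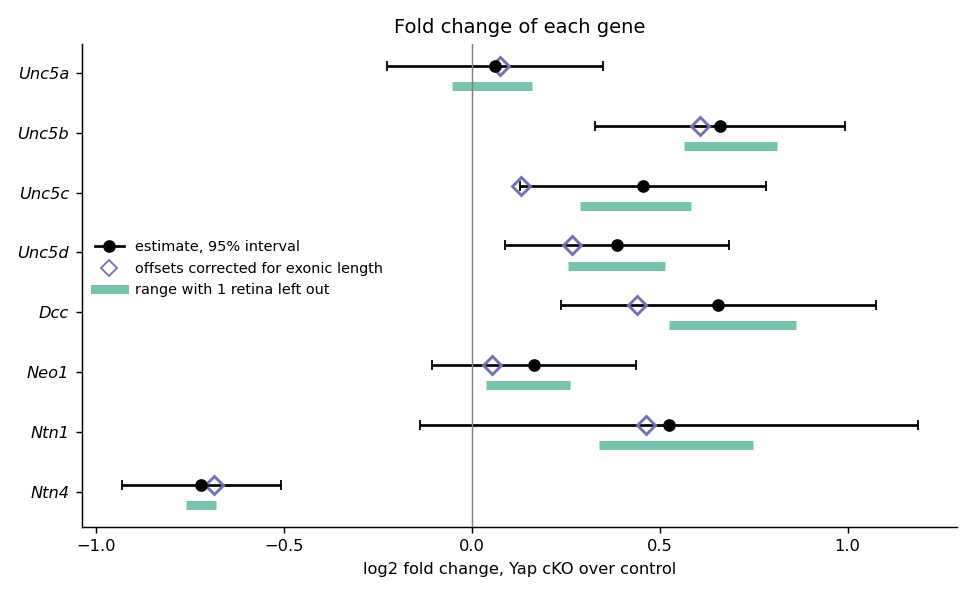
Log2 fold change of each gene, *Yap* cKO over control (x axis), with the 95% interval (black), the estimate with offsets corrected for exonic length (diamond) and the range over the 6 fits that leave out 1 retina (green bar). The interval of *Ntn4* lies below 0, those of *Unc5b*, *Unc5c*, *Unc5d* and *Dcc* above it, and the diamonds of *Unc5c* and *Dcc* are shifted most towards 0.

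The sexes were not balanced. *Xist* had between 2867 and 6751 counts in control YR615 and *Yap* cKO YR713 and YR714 and at most 1 in the other retinas, in which the Y-linked *Ddx3y* had between 1031 and 1808 counts. *Ntn4* was lower and *Unc5b* higher in *Yap* cKO among the retinas of each kind. With sex as a covariate *Ntn4* was at -0.72 (adjusted p = 0.0191 by edgeR's quasi-likelihood test) and the only member called (0.664% of all tested genes called), and *Unc5b* was at 0.57 (adjusted p = 0.0955). In the same fit *Dcc* was at 0.76 (adjusted p = 0.0755), *Unc5c* at 0.54 (adjusted p = 0.0781) and *Unc5d* at 0.47 (adjusted p = 0.0861).

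No exon base of the 8 genes is shared with another annotated gene on the same strand. On the opposite strand *Unc5a* shares 34 of its 4168 exonic bases with *Hk3* and *Unc5c* shares 118 of its 19135 with *Gm15688*. Those genes had between 3 and 25 counts per retina, and the counting used strand.

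The genes whose profile over the 6 retinas was most like each member are given as a description, by Pearson's r of log2 CPM, with no p. *Ntn4* was followed most closely by *Ddx56*, *Qrfpr* and *Colec12* (r = 0.998, 0.996 and 0.996). Of these, *Qrfpr*, a neuropeptide receptor gene, stood between 19.4 and 24.2 TPM in control retinas and between 5.92 and 8.499 TPM in those of *Yap* cKO, and the scavenger receptor gene *Colec12* between 1.30 and 1.61 and between 0.474 and 0.646 TPM. *Unc5b* was followed by *Exph5*, *Stc2* and *Cpne5* (r = 0.998, 0.996 and 0.996), of which *Stc2*, a secreted glycoprotein gene, stood between 1.96 and 2.20 TPM in control retinas and between 3.21 and 6.73 TPM in those of *Yap* cKO. The closest to *Unc5d* were the ephrin receptor gene *Epha4*, *Ntm* and *Tenm3*, and to *Unc5c* they were *Gopc*, *Kcna2* and *Ampd3*. *Dcc* was followed by *Gm44560*, *Dnajc15* and *Mtmr3*, *Neo1* by *Prkd3*, *Dnajc18* and *Amer2*, *Unc5a* by *Gm11175*, *Proca1* and *Coil*, and *Ntn1* by *Gart*, *Cdkal1* and *Zfp300*. With only 6 retinas and 16575 genes, such values are high for some gene whatever the member.

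Other genes of netrin signalling, together with Slits, Robos and laminin gamma chains, were taken from 6 lists with 65 genes, called pathway genes here. Of these 64 were tested and *Ntn5* was not. Of the 64, 46 had a log2 fold change above 0 and 18 below, with a median of 0.11, or 0.03 after the correction for exonic length. None was called by edgeR's quasi-likelihood test, its likelihood ratio test, DESeq2's Wald test or limma-voom. An unadjusted quasi-likelihood p under 0.05 was found for 19 of the 64, and for 3549 of all 16575 tested genes. By the adjusted p alone 2 passed, *Dscam* and *Bmp2*, against 1.49% of all tested genes.

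*Dscam*, a cell adhesion molecule and netrin co-receptor that sets the spacing of retinal neurons, was higher in *Yap* cKO. It measured 18.1 TPM (YR612), 23.8 TPM (YR613) and 20.5 TPM (YR615) in control retinas, and 32.8 TPM (YR711), 33.0 TPM (YR713) and 28.5 TPM (YR714) in *Yap* cKO retinas. The groups were apart, with a log2 fold change of 0.54 (SE 0.096, adjusted p = 0.0322 by edgeR's quasi-likelihood test) that lay under the minimum fold, and of 0.43 (adjusted p = 0.0105) after the correction for exonic length. In the same list the tetraspanin gene *Cd82* was at 21.0 ± 0.900 TPM in control retinas and at 15.1 ± 1.61 TPM in *Yap* cKO retinas (SD, n = 3, adjusted p = 0.0539). Of the 13 co-receptors 6 were above 0 and 7 below.

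*Bmp2*, a morphogen that binds neogenin, fell, from 3.33, 2.96 and 3.92 TPM in the controls to 0.837, 1.58 and 1.40 TPM in the *Yap* cKO retinas. Its log2 fold change was -1.45 (SE 0.24, adjusted p = 0.0246 by edgeR's quasi-likelihood test), and both means were under 5 TPM. *Flrt1*, a ligand of UNC5 receptors in the same list of 10, was at 5.09 ± 0.726 and 7.35 ± 1.26 TPM (SD, n = 3, adjusted p = 0.128). Among the 10, 7 were above 0 and 3 below.

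Inside the cell, 21 of 26 genes were above 0 and 5 below, with a median of 0.10 that became 0.03 with the correction for exonic length. The exchange factor gene *Trio* was at 12.8 ± 1.498 and 17.4 ± 1.18 TPM (SD, n = 3, adjusted p = 0.0634), and its log2 fold change of 0.39 became 0.02 with the correction, its exons covering 23395 bases. The death-associated kinase gene *Dapk1*, which acts downstream of unbound UNC5B, was at 19.5 ± 2.58 and 26.3 ± 2.15 TPM (SD, n = 3, adjusted p = 0.0860), with a log2 fold change of 0.38 that became 0.26.

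Of the other netrins and netrin-G ligands, 4 of 5 tested were above 0. *Lrrc4c*, the netrin-G1 ligand, was at 28.4 ± 4.68 and 39.1 ± 4.31 TPM (SD, n = 3, adjusted p = 0.107), with a log2 fold change of 0.40 that was also 0.40 with the correction for exonic length. *Ntn3* was at 2.58 ± 0.0828 and 2.05 ± 0.391 TPM (SD, n = 3, adjusted p = 0.241). In the Slit and Robo list, another axon guidance system, 6 of 7 were above 0. The receptor gene *Robo2* was at 23.6 ± 3.82 and 33.5 ± 4.70 TPM (SD, n = 3, adjusted p = 0.0947), and the ligand gene *Slit1* at 11.999 ± 1.15 and 15.1 ± 1.30 TPM (SD, n = 3, adjusted p = 0.164). Among the laminin gamma chains *Lamc3* was at 1.59 ± 0.236 and 2.16 ± 0.231 TPM (SD, n = 3, adjusted p = 0.235).

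**Figure D5:**
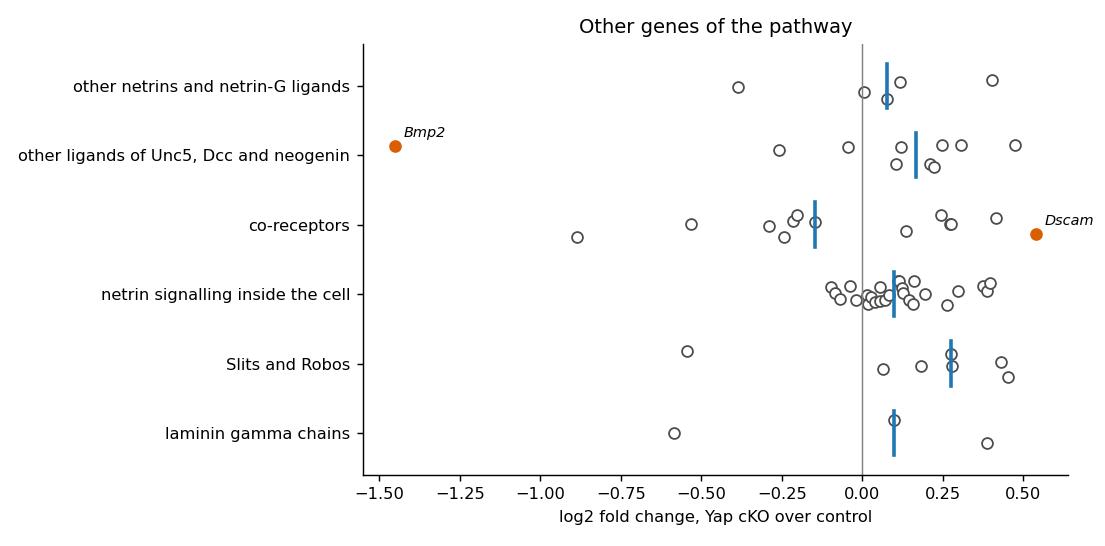
Log2 fold change, *Yap* cKO over control (x axis), of the 64 tested pathway genes by list (y axis), with the median of each list as a blue bar and filled points where the adjusted p was 0.05 or less. Only *Dscam*, at 0.54, and *Bmp2*, at -1.45, are filled, and the co-receptors are the one list with its median below 0.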

How the data were processed

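Genotype, induction and animal codes came from the labels, and age from the study's methods. Paired-end reads of stranded, polyadenylated RNA libraries were aligned by the authors to GRCm38 with STAR 2.7.3a (per the labels), and fragments on exons were counted with featureCounts 1.6.2, strand setting 2 and annotation release 98 (per the file headers). The deposited values are raw counts, between 24261799 and 35067068 per retina, and the exonic length of each gene. The 3 retinas of a group are independent biological replicates by the study's methods. TPM was computed here from the counts and lengths.

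Genes passing filterByExpr were normalized by TMM (factors 0.986 to 1.02) and tested with edgeR 4.0.16 (R 4.3.3), *Yap* cKO against control, without covariates. The study's criteria were used. It names edgeR but not which test, so the likelihood ratio test, DESeq2 1.42.0 and limma-voom (limma 3.58.1) were alternatives, beside other size factors, no filter, offsets from a loess curve (span 0.3) of relative expression against exonic length, and each retina left out. At these criteria the quasi-likelihood test called 132 of the 16575 tested genes and the likelihood ratio test 291. The second number is nearer to the count of differing genes that the study reports. The combination of likelihood ratio test and length offsets, and sex as a covariate, were added after seeing the data. Single ratios were tested by two-sided exact permutation. The steps were tested on simulated data.

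The genes and lists were chosen with earlier results of these data known. Named beside the 8 genes are pathway genes whose adjusted p was 0.05 or less, the 2 with the smallest unadjusted p in each list (1 of these is not reported here), and the 3 genes most correlated with each member (log2 CPM, prior count 2). Promoter windows are from RefSeq (GRCm38.p6) and were matched by symbol.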

Additional observations from a re-analysis of the deposited data

How the results depend on the processing

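Of the 8 netrin and receptor genes, 1 was called in the comparison as reported, and 1 with median ratio, library size or upper quartile factors, with limma-voom, with length-corrected offsets and with sex as a covariate. The count was 3 (*Ntn4*, *Unc5b* and *Dcc*) with edgeR's likelihood ratio test, with DESeq2's Wald test and without the filter on low counts, and 2 (*Ntn4* and *Unc5b*) with the likelihood ratio test and length-corrected offsets. Leaving out 1 retina gave between 0 and 3 called members, 0 without control YR615 or without *Yap* cKO YR713. Pathway genes called numbered 0 in every other setting but 2 by the adjusted p alone, and between 0 and 3 with 1 retina left out: *Dscam*, *Map1b* and *Robo1* without control YR613, *Dscam* and *Flrt1* without *Yap* cKO YR714. Over the 16 alternatives, the log2 fold changes of 7 members kept their sign (*Ntn4* -0.76 to -0.68, *Unc5b* 0.57 to 0.81, *Dcc* 0.44 to 0.86, *Unc5c* 0.13 to 0.58, *Unc5d* 0.26 to 0.52). *Unc5a* lay between -0.05 and 0.16 and was below 0 when control YR613 (-0.0258) or *Yap* cKO YR714 (-0.0518) was left out. The cause of these changes was not tested. The differences in the shares of *Unc5c* and *Unc5d* among Unc5 transcripts (1.51 and 1.76 percentage points) were -0.13 and -0.72 without *Yap* cKO YR711, the lowest of their ranges, whose highest values were 2.91 and 3.69. The other 8 sums, shares and ratios kept their direction with each retina left out, a check added after seeing the data. No paired analysis was possible because the labels name each retina by an animal code of its own and give no replicate number, litter or pair that the groups share. The 3 retinas per group, and the 20 to 52 counts of *Ntn1*, limit what could be detected.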
